A study of Mus musculus with 12 samples.

Results

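The AP-1 subunits are transcription factors that act in pairs on DNA, and 10 of their genes are described here: Fos, Fosb, Fosl1, Fosl2, Jun, Junb, Jund, Atf3, Batf and Jdp2. They were found by gene symbol in the deposited count table, where all 10 matched among 54532 genes, and all 10 passed the filter on low counts that left 13800 genes for testing. The study cultured bone marrow-derived macrophages from 8-week-old male mice with M-CSF at 50 ng/mL, a cytokine that turns marrow precursors into macrophages, and sequenced polyA RNA. Its title places the work in gum inflammation and integrin alpha9beta1, a matrix receptor for which Itga9 encodes the alpha subunit. The labels name an agent Pg, which they do not spell out. It was given for 2 hours at an MOI, which relates microbes to cells, of 1:20 as labelled. That label was taken here as 20 microbes per cell.

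The 4 groups held 3 libraries each. They were Itga9-Lyz2-cKO macrophages with Pg (cKO Pg), Itga9-Lyz2-cHet macrophages with Pg (cHet Pg), Itga9-Lyz2-cKO macrophages without it (cKO control) and Itga9-Lyz2-cHet macrophages without it (cHet control). Both genotype names hold Lyz2, the lysozyme gene whose promoter drives Cre recombinase in a common myeloid deleter strain, so no group lacks that element of the name. The labels do not spell out the alleles or the deleted exons. Whether replicate libraries stem from different animals or dishes is not labelled, and p-values rest on differences among libraries that could be technical repeats. Pg was sampled at 1 time, and the course before 2 hours was not measured.

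AP-1 binds DNA as a pair of basic leucine zipper (bZIP) proteins. FOS proteins need a JUN partner, whereas JUN proteins can also pair among themselves, and ATF3, BATF and JDP2 pair with JUN proteins too. Many of these genes belong to the immediate early genes, which MAP kinases switch on within minutes of a stimulus by acting on factors already present, and whose mRNAs decay fast. In macrophages AP-1 acts with NF-kB at cytokine and protease genes, and FOS is required for macrophage precursors to become osteoclasts.

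Total counts lay between 14527674 and 16793803 per library, and the 10 subunits together took 0.159% to 0.296% of them. Itga9 held 13.6, 11.6 and 7.84 CPM, counts scaled to the library total, in cKO Pg libraries and 19.4, 34.0 and 33.4 CPM in cHet Pg libraries, and 11.5, 5.98 and 6.42 CPM in cKO control libraries and 32.3, 17.9 and 18.9 CPM in cHet control libraries. Lyz2 lay between 8746 and 10978 CPM in the 6 cKO libraries and between 17628 and 22005 CPM in the 6 cHet libraries, so the genotypes differ in more than Itga9. The macrophage markers Adgre1, Csf1r and Cd68 were high in every library, with Csf1r between 3960 and 5408 CPM. Libraries split inside every group by Itgax, the integrin alpha chain CD11c. It held 103 to 137 CPM in 6 libraries (cKO Pg 1 and 2, cHet Pg 2 and 3, cKO control 1 and cHet control 1) and 36.2 to 59.3 CPM in the other 6. The split was the same in both genotypes but not in both treatments, since 2 of 3 Pg libraries and 1 of 3 control libraries were on the high side. Itgax is 1 of 8 dendritic cell markers, which summed to 65.0 to 134 CPM in cKO Pg, 70.7 to 152 CPM in cHet Pg, 52.0 to 133 CPM in cKO control and 43.5 to 122 CPM in cHet control libraries. Results that rest on the split are given with it taken into account.

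The members lie on chromosomes 1, 4, 5, 7, 8, 12 and 19 of mm10, and all are annotated as protein-coding. Fos (chr12:85473890-85477273, plus strand), Jdp2 (chr12:85599027-85639878, plus strand) and Batf (chr12:85686669-85709087, plus strand) share a segment of 235 kb. Fosb lies at chr7:19302696-19310051 (minus strand), Fosl1 at chr19:5447703-5455945 (plus strand) and Fosl2 at chr5:32135801-32157842 (plus strand). Jun lies at chr4:95049034-95052222 (minus strand), Junb at chr8:84974484-84978718 (minus strand), Jund at chr8:70698949-70700616 (plus strand) and Atf3 at chr1:191170296-191218039 (minus strand).

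The comparisons turn on Fos and Jun, which fell with Pg in cHet macrophages, and on Junb, which rose with Pg and differed between genotypes in controls. The 120 bases before their RefSeq transcript starts (GRCm38.p6) are therefore shown, 5′ to 3′ on the strand of the gene. They are chr12:85473770-85473889 (plus strand) for Fos, chr4:95052223-95052342 (minus strand) for Jun and chr8:84978749-84978868 (minus strand) for Junb, whose RefSeq start lies 30 bases upstream of the deposited gene edge. Capitals mark the motif letters found.
Fos: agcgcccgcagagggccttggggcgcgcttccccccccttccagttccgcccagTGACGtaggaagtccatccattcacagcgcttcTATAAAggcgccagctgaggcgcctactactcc
Jun: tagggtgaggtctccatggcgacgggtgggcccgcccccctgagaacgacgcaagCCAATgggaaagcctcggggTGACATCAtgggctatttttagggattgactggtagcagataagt
Junb: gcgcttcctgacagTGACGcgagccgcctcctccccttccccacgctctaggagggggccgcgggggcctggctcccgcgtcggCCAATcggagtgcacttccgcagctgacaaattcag
Positions are counted back from the transcript start, with -1 the last base shown. Fos holds TGACG, the core of the cAMP response element, from -66 to -62 and the TATA box letters TATAAA from -33 to -28. Jun holds TGACATCA, a variant AP-1 site known to bind JUN and ATF2, from -45 to -38 and CCAAT from -65 to -61. Junb holds TGACG from -106 to -102 and CCAAT from -36 to -32.

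Motifs were searched on both strands of the 250 bases before each RefSeq start, and 9 of the 10 members had an entry. Fosl1 had none. The canonical AP-1 site TGANTCA stood in 6.75% of 32851 promoters and in none of the members' windows, and the full element TGACGTCA stood in 1.55% and likewise in none. TGACATCA stood in 2.93% of promoters and, among the members' windows, in that of Jun only. TGACG, which TGACGTCA contains, stood in 17.8% of promoters and in Fos (also at -129 to -125), Junb, Fosb, Atf3, Jdp2 and Batf. Jdp2 had several RefSeq starts, and only the window before chr12:85599416 held TGACG. The RefSeq start searched lies 34706 bases from the deposited gene edge for Atf3 and 1210 bases for Jund. TATAAA stood in 12.4% and CCAAT in 33.8% of promoters. The CArG box, the serum response element's core, stood in 1.47% of promoters and in no member's window. Sites more than 250 bases upstream were not searched, so a gene without a match here can still hold the motif further away. These motifs were chosen after the sequences were seen, and a match describes letters only.

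Per length, Junb and Atf3 dominated the subunit mRNA in all 4 groups. Levels between genes are compared in RPKM, reads per kilobase of gene scaled to the library total. Junb held 538 ± 11.1 RPKM in cKO Pg, 550.0 ± 17.5 RPKM in cHet Pg, 209.9 ± 9.18 RPKM in cKO control and 324 ± 9.36 RPKM in cHet control libraries (SD, n = 3 each). Atf3, a stress-induced factor known in macrophages to restrain Toll-like receptor cytokine genes, held 381 ± 70.1 RPKM in cKO Pg, 332 ± 74.7 RPKM in cHet Pg, 226 ± 21.6 RPKM in cKO control and 221 ± 24.9 RPKM in cHet control libraries (SD, n = 3 each). Their libraries overlapped in cKO control only, where Atf3 led by mean, and Junb was above Atf3 in every library of the other 3 groups.

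Under the leading pair the order changed with Pg. In controls Jun came next, with 80.6 ± 2.56 RPKM in cKO control and 111.5 ± 6.04 RPKM in cHet control libraries (SD, n = 3 each), and no library of the gene ranked below it reached that level. Under Pg the next place belonged to Jdp2, a subunit known to repress AP-1 targets, with 96.8 ± 4.75 RPKM in cKO Pg and 115.7 ± 13.3 RPKM in cHet Pg libraries (SD, n = 3 each). Jun then overlapped with Fosl2 in both Pg groups, and with Jund in cKO Pg. Fosb was the lowest member by mean in every group, between 0.155 RPKM in cKO control and 9.13 RPKM in cKO Pg libraries, and overlapped with Fosl1 under Pg.

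The summed level of the 10 subunits was higher with Pg in both genotypes. It was 1303, 1233 and 1133 RPKM in cKO Pg libraries and 1118, 1222 and 1270.3 RPKM in cHet Pg libraries, against 657, 623 and 603 RPKM in cKO control libraries and 833, 795 and 772 RPKM in cHet control libraries. The Pg groups overlapped each other and lay above all control libraries, and the cKO control libraries lay below all cHet control libraries. Fos and Jun, the pair by which AP-1 was first described, made up 5.87 ± 1.07% of the sum in cKO Pg and 5.06 ± 0.893% in cHet Pg, against 16.7 ± 0.361% in cKO control and 19.7 ± 0.540% in cHet control (SD, n = 3 each). Junb made up 44.1 ± 2.68% in cKO Pg and 45.8 ± 2.53% in cHet Pg, against 33.5 ± 1.92% in cKO control and 40.6 ± 2.24% in cHet control. The share of Atf3 was 31.0 ± 3.65% in cKO Pg and 27.4 ± 4.75% in cHet Pg, against 35.9 ± 2.12% in cKO control and 27.6 ± 2.16% in cHet control. These shares have no test, and in bulk RNA fewer cells of a type and less RNA per cell cannot be told apart.

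**Figure D1:**
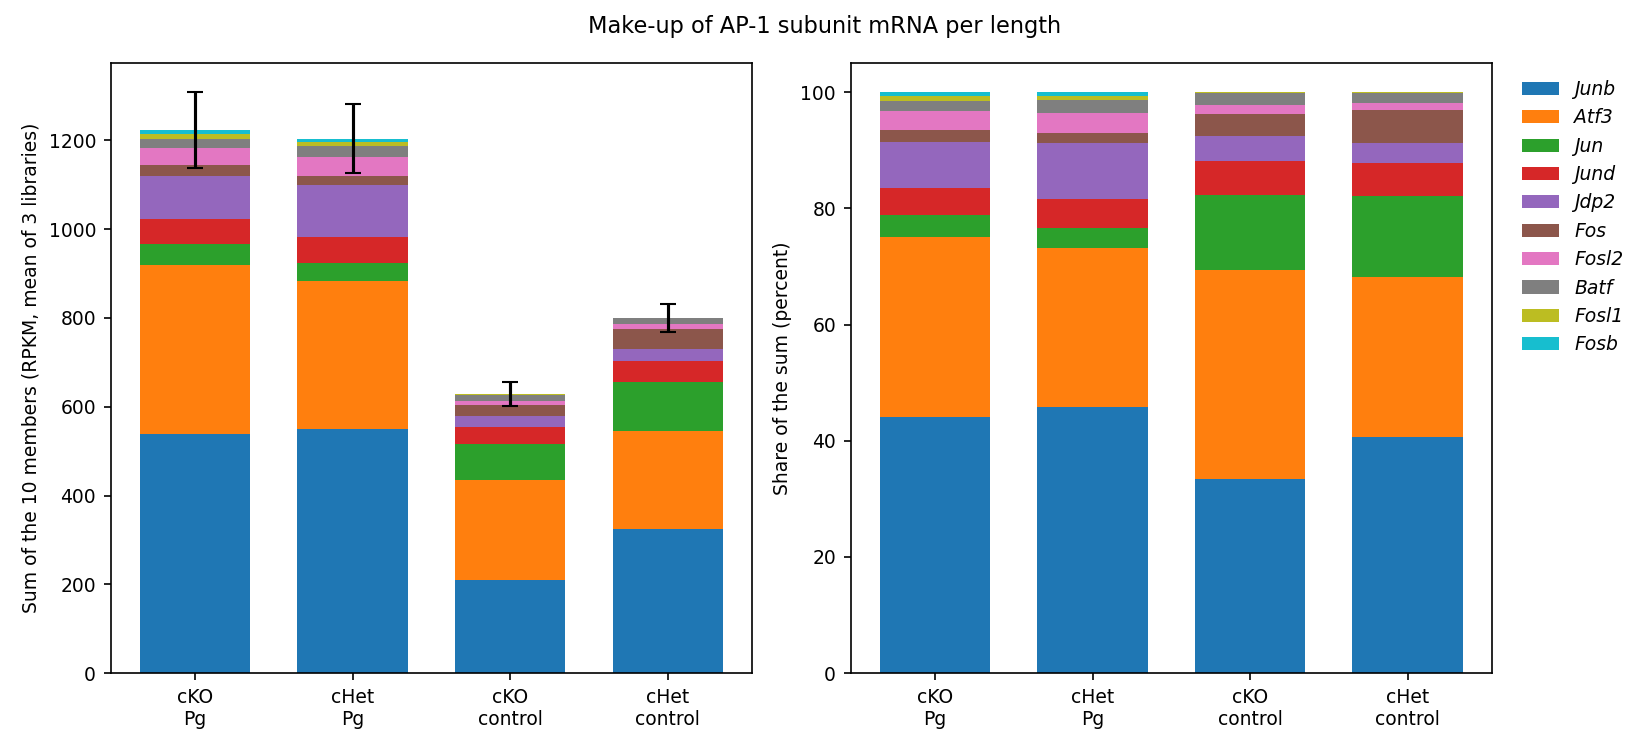
Make-up of AP-1 subunit mRNA per length in the 4 groups. Left, stacked mean RPKM of the 10 genes, with the SD of the sum over 3 libraries as the error bar; right, each gene's percent of the sum (mean of 3 libraries). Junb and Atf3 fill most of each bar, and Jun takes 3.81% in cKO Pg and 3.41% in cHet Pg, against 12.8% in cKO control and 13.9% in cHet control.

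Pg changed nearly all subunits. In cKO macrophages 8 of the 10 rose and 1 fell with edgeR's quasi-likelihood test at a Benjamini-Hochberg adjusted p under 0.05, in a comparison that called 34.0% of all tested genes (16.9% higher and 17.1% lower). In cHet macrophages 8 rose and 2 fell, where 36.1% of all tested genes were called (18.0% higher and 18.0% lower). The median log2 change of the 10 was 1.06 in cKO and 0.88 in cHet, beside -0.00 and -0.01 over all tested genes. The same 8 rose in both genotypes, as did 12.5% of tested genes. At an unadjusted p under 0.05 the members numbered 9 in cKO and 10 in cHet, beside 42.5% and 44.1% of all tested genes. Every Pg library lay above every control library for 8 members in cKO and 7 in cHet, as for 22.0% and 22.9% of tested genes, and below for 1 and 2 members, as for 23.1% and 24.3%. By point estimate Fosb and Fosl1 had the largest rises of the 10 in both genotypes, followed by Fosl2 and Jdp2.

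Among the FOS family, Fos itself went apart from its relatives. It held 69.7, 71.0 and 39.3 CPM in cKO Pg libraries, against 63.8, 56.5 and 51.0 CPM in cKO control libraries. It held 29.7, 57.2 and 55.0 CPM in cHet Pg libraries, against 121, 103 and 102 CPM in cHet control libraries. The cKO groups overlapped, whereas every cHet Pg library was below every cHet control library. The log2 difference was 0.07 ± 0.28 in cKO (adjusted p 0.881, interval of 2 SE from -0.49 to 0.63), and Fos fell by 1.20 ± 0.28 on the log2 scale in cHet (adjusted p 0.00950).

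Fosb, an immediate early paralog of Fos, was scarce in controls and clearly present with Pg. It held 50.4, 63.5 and 57.2 CPM in cKO Pg libraries against 0.893, 1.25 and 0.759 CPM in cKO control libraries, and 61.3, 37.4 and 35.6 CPM in cHet Pg libraries against 1.89, 2.10 and 3.42 CPM in cHet control libraries. The control values rest on 13 to 20 reads per cKO library and 34 to 55 reads per cHet library. Fosb rose by 5.88 ± 0.32 on the log2 scale in cKO (adjusted p 1.2e-07) and by 4.19 ± 0.27 in cHet (adjusted p 6.2e-07), with no overlap in either genotype.

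Fosl1 and Fosl2 encode FRA1 and FRA2, which lack the strong activation domain of FOS and are usually induced later. Fosl1 held 18.8, 19.2 and 16.0 CPM in cKO Pg libraries against 0.893, 1.12 and 0.759 CPM in cKO control libraries, and 13.4, 16.2 and 14.0 CPM in cHet Pg libraries against 1.61, 1.63 and 1.37 CPM in cHet control libraries. Its rise was 4.28 ± 0.18 on the log2 scale in cKO (adjusted p 7.7e-12) and 3.23 ± 0.17 in cHet (adjusted p 1.2e-10). No library of either Pg group came near the control range. Fosl2 was more abundant, with 327, 359 and 427 CPM in cKO Pg libraries against 85.7, 95.5 and 89.4 CPM in cKO control libraries, and 468, 394 and 379 CPM in cHet Pg libraries against 96.6, 95.9 and 94.0 CPM in cHet control libraries. It rose by 2.04 ± 0.10 in cKO (adjusted p 9.6e-11) and by 2.11 ± 0.10 in cHet (adjusted p 7.3e-11), about 4.11-fold and 4.33-fold.

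In the JUN family the direction differed between members. Jun, whose product is the main partner of FOS and is switched to high activity by JNK, held 168, 165 and 115.0 CPM in cKO Pg libraries against 259.6, 263 and 248 CPM in cKO control libraries. With cHet it held 104, 146 and 144 CPM in Pg libraries against 375, 354 and 337 CPM in control libraries. All Pg libraries of a genotype were below all of its controls. Jun fell by 0.78 ± 0.15 on the log2 scale in cKO (adjusted p 0.00203) and by 1.44 ± 0.15 in cHet (adjusted p 2.6e-05).

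Junb, whose product often opposes JUN at promoters and whose mRNA was the most abundant of the 10 per length under Pg, was nearly equal across the Pg libraries. It held 1267, 1217 and 1230.3 CPM in cKO Pg libraries against 477, 507 and 466 CPM in cKO control libraries, and 1252, 1234 and 1311 CPM in cHet Pg libraries against 728, 770.0 and 739 CPM in cHet control libraries. All 4 groups had narrow ranges, and only the 2 Pg groups overlapped. Junb rose by 1.36 ± 0.06 on the log2 scale in cKO (adjusted p 1.1e-11) and by 0.76 ± 0.06 in cHet (adjusted p 1.8e-08), or 2.56-fold and 1.70-fold.

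Jund, the JUN protein usually present in resting cells, held 99.9, 97.5 and 87.1 CPM in cKO Pg libraries against 64.3, 60.2 and 62.9 CPM in cKO control libraries. It held 94.9, 93.0 and 110.0 CPM in cHet Pg libraries against 75.7, 83.9 and 67.9 CPM in cHet control libraries. Neither genotype's groups overlapped, and the rise was 0.60 ± 0.08 on the log2 scale in cKO (adjusted p 2.9e-05) and 0.39 ± 0.08 in cHet (adjusted p 0.00153). The cHet call was lost when libraries were scaled by their totals alone (0.14, adjusted p 0.173), a scaling that shifted the median of all genes by -0.24 with Pg. Under that scaling 18.7% of calls in cKO and 19.2% of calls in cHet were higher, against 49.7% and 50.0% with TMM. No called member changed its direction with it.

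**Figure D2:**
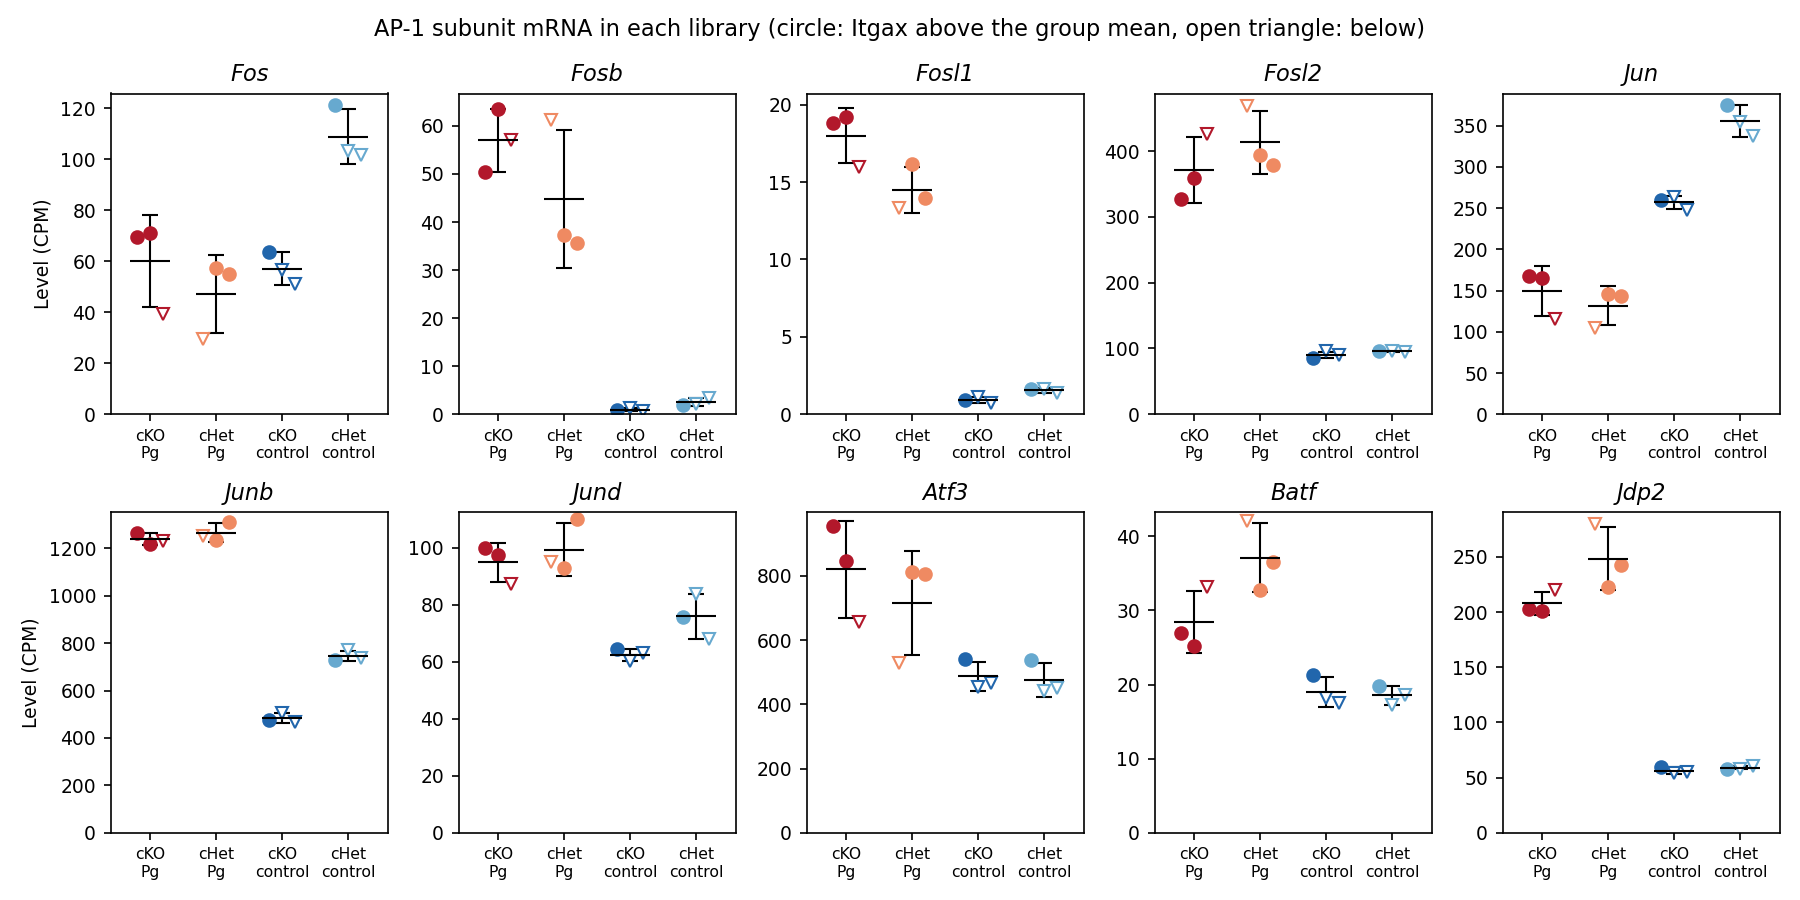
Level of each of the 10 AP-1 subunits in the 12 libraries, in CPM on an axis that starts at 0. Points are libraries of cKO Pg, cHet Pg, cKO control and cHet control, circles where Itgax was above the group mean and open triangles where it was below; lines are the mean ± SD of 3. Fosb, Fosl1, Fosl2 and Jdp2 show Pg libraries far above controls, and Fos and Jun show cHet controls on top.

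Atf3 held 956, 847 and 657 CPM in cKO Pg libraries against 540.1, 455 and 465 CPM in cKO control libraries. It held 529.6, 811 and 806 CPM in cHet Pg libraries against 538, 441 and 449 CPM in cHet control libraries. The cKO groups did not overlap, but cHet Pg library 1 was inside the control range. The log2 rise was 0.75 ± 0.18 in cKO (adjusted p 0.0106) and 0.59 ± 0.18 in cHet (adjusted p 0.0320). The cHet call did not hold without library 2 (0.49, adjusted p 0.106) or 3 (0.49, adjusted p 0.103) of cHet Pg or without library 2 (0.53, adjusted p 0.104) or 3 (0.55, adjusted p 0.0994) of cHet control, nor with libraries scaled by totals alone (0.35, adjusted p 0.158), with no filter on low counts (0.56, adjusted p 0.107) or with a replicate block (0.60, adjusted p 0.0571).

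Batf, a small bZIP protein without an activation domain that pairs with JUN proteins, held 27.0, 25.3 and 33.1 CPM in cKO Pg libraries against 21.2, 18.1 and 17.5 CPM in cKO control libraries. It held 42.0, 32.7 and 36.5 CPM in cHet Pg libraries against 19.8, 17.2 and 18.6 CPM in cHet control libraries. The groups did not overlap in either genotype, and Batf rose by 0.59 ± 0.12 on the log2 scale in cKO (adjusted p 9.1e-04) and by 1.00 ± 0.12 in cHet (adjusted p 3.6e-06). Jdp2, which also promotes osteoclast formation in mice, held 203, 201 and 219.7 CPM in cKO Pg libraries against 59.7, 54.2 and 55.3 CPM in cKO control libraries. With cHet it held 279, 223 and 243 CPM in Pg libraries against 58.0, 58.2 and 60.3 CPM in control libraries. Jdp2 rose by 1.88 ± 0.08 in cKO (adjusted p 7.7e-12) and by 2.08 ± 0.08 in cHet (adjusted p 3.5e-12), 3.69-fold and 4.23-fold, with controls within a narrow range in both genotypes.

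Between genotypes, unstimulated cKO macrophages had less Junb than cHet macrophages, and 5 more subunits were below with no overlap. Junb fell by 0.63 ± 0.06 on the log2 scale (adjusted p 2.6e-06), to 483 ± 21.1 CPM in cKO control against 746 ± 21.5 CPM in cHet control libraries (SD, n = 3 each). It was the only member of 10 called, 1 lower and 0 higher, where 5.15% of all tested genes were called (2.13% higher and 3.02% lower). At an unadjusted p under 0.05 the count was 6 of 10, beside 18.2% of all tested genes. In these 6 (Fos, Fosb, Fosl1, Jun, Junb and Jund) every cKO control library was below every cHet control library, as was so for 11.7% of tested genes.

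For the 5 that missed the threshold, the log2 difference of cKO from cHet in controls was -0.93 ± 0.28 for Fos (adjusted p 0.106), -1.34 ± 0.44 for Fosb (adjusted p 0.125) and -0.74 ± 0.23 for Fosl1 (adjusted p 0.0771). It was -0.47 ± 0.15 for Jun (adjusted p 0.108) and -0.28 ± 0.08 for Jund (adjusted p 0.0664). Fosl2, Atf3, Batf and Jdp2 had differences of -0.08 ± 0.09, 0.03 ± 0.18, 0.03 ± 0.12 and -0.06 ± 0.08, with intervals of 2 SE from -0.27 to 0.11, -0.34 to 0.40, -0.21 to 0.27 and -0.22 to 0.10. DESeq2 called 4 of the 10 in controls, adding Fos (adjusted p 0.0355), Fosb (adjusted p 0.00114) and Jun (adjusted p 0.0222) to Junb. Of all genes it called 819 of 16247. A fit to the control libraries alone also called 4, with Fos at an adjusted p of 1.0e-04, beside 623 of 13229 genes.

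With Pg no subunit was called between genotypes. By edgeR 0 of 10 members passed between cKO Pg and cHet Pg, where 1.85% of all tested genes did (0.652% higher and 1.20% lower). DESeq2 and limma-voom likewise called 0. At an unadjusted p under 0.05 there were 3 members, beside 12.2% of all tested genes. Junb differed by -0.03 ± 0.06 (adjusted p 0.891), with an interval of 2 SE from -0.15 to 0.08. The difference was 0.34 ± 0.28 for Fos, 0.35 ± 0.20 for Fosb, 0.31 ± 0.13 for Fosl1 and 0.19 ± 0.15 for Jun, with adjusted p between 0.326 and 0.718. Batf and Jdp2, neighbours on chromosome 12, were below in cKO Pg by point estimate, at -0.38 ± 0.11 (adjusted p 0.125) and -0.26 ± 0.07 (adjusted p 0.106). Of the 10 members, Jdp2 alone had no overlap between the Pg groups, where 8.51% of tested genes lay wholly lower and 9.04% wholly higher in cKO.

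The difference between genotypes in the Pg response was tested directly, by subtracting the cHet response from the cKO response. By arithmetic this is also the genotype difference with Pg less the genotype difference without it, and all 3 comparisons rest on shared libraries. Junb was called, at 0.60 ± 0.08 on the log2 scale (adjusted p 0.00338), the only 1 of 10 members (1 higher, 0 lower) where 0.717% of all tested genes were called (0.457% higher and 0.261% lower). Its p-value ranked 4 among 13800 genes. The estimate was 1.27 ± 0.40 for Fos (adjusted p 0.218), 1.69 ± 0.49 for Fosb (adjusted p 0.173), 1.05 ± 0.26 for Fosl1 (adjusted p 0.0857) and 0.65 ± 0.21 for Jun (adjusted p 0.212). These 4 were thus larger in size than the called Junb but less precise. Fosl2 had -0.07 ± 0.13, with an interval of 2 SE from -0.34 to 0.19, beside Pg rises above 2 on the log2 scale in both genotypes.

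**Figure D3:**
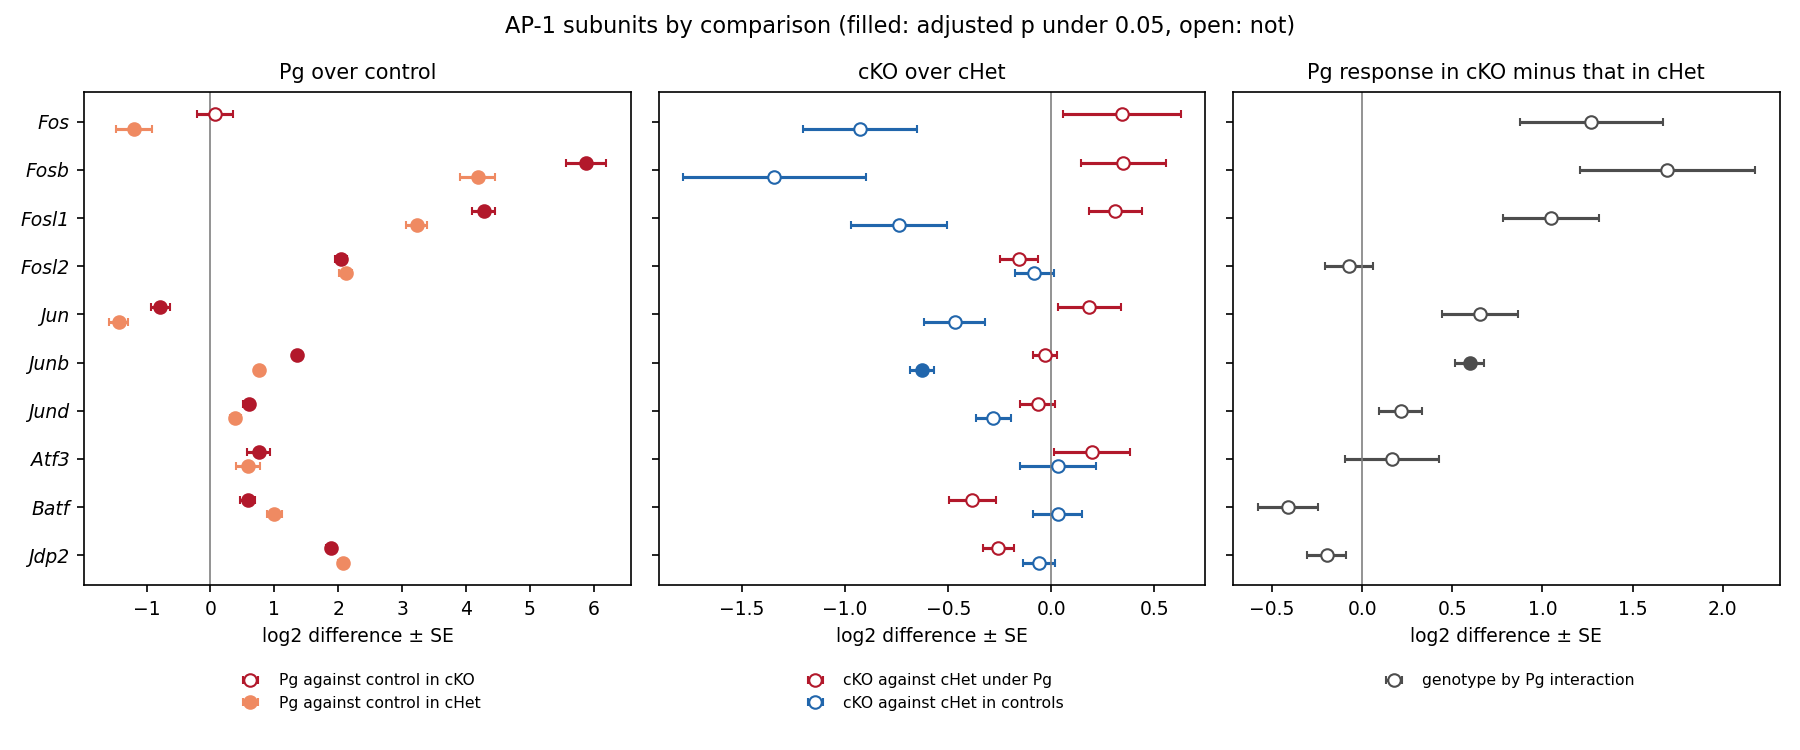
Log2 differences ± SE of the 10 AP-1 subunits from edgeR's quasi-likelihood fit to 12 libraries. Left, Pg over control in cKO and in cHet; middle, cKO over cHet under Pg and in controls; right, the cKO response to Pg less the cHet response. Filled points passed an adjusted p of 0.05: all but Fos in cKO on the left, Junb in controls in the middle, and Junb on the right.

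Some subunits separated by Itgax side inside groups. Fos and Atf3 were lower in every library of the low-Itgax side in all 4 groups, and Jun in 3 of 4, with overlap in cKO control. In Pg groups the low-Itgax library (cKO Pg 3 and cHet Pg 1) was also the lowest for Fosl1 and the highest for Fosl2, Batf and Jdp2. In both control groups Batf was instead lower on the low-Itgax side. There Fosl1 overlapped, and Fosl2 and Jdp2 each went opposite ways in the genotypes. Junb overlapped between sides in 3 of 4 groups. With so few libraries a side, genes without a link to Itgax also separate often. The share of all tested genes that separate this way was not computed. The part of Itgax-linked variation in the Pg responses was not tested beyond the following refits, both chosen after seeing the data.

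With the log2 CPM of Itgax as a covariate, the count of members called was 9 in cKO and 10 in cHet for Pg, as in the fit without it. The same fit called 5 members between genotypes in controls, beside 1701 of all 13800 tested genes (711 without the covariate). Fos fell there by 1.00 (adjusted p 0.0119). The difference was -0.76 for Fosl1 (adjusted p 0.0446), -0.50 for Jun (adjusted p 0.0255), -0.29 for Jund (adjusted p 0.00901) and -0.62 for Junb (adjusted p 7.0e-11). The fit called 2 under Pg, beside 759 of all tested genes (255 without the covariate). They were Batf at -0.39 (adjusted p 0.0288) and Jdp2 at -0.27 (adjusted p 0.00692). For the difference in response the fit called 4, beside 715 of all tested genes (99 without the covariate). They were Fos at 1.44 (adjusted p 0.0278), Fosl1 at 1.11 (adjusted p 0.0181), Jun at 0.73 (adjusted p 0.0472) and Junb at 0.59 (adjusted p 2.2e-06). No member was called in a direction opposite to its estimate without the covariate.

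Leaving out the library of each group that stood apart by Itgax kept 2 libraries a group, with Pg libraries all on the high side and control libraries all on the low side. Libraries were then removed by a measured value, which narrows the spread. That fit called 5 members in controls, 5 under Pg and 4 for the difference in response. Of 13861 tested genes it called 1422, 771 and 868, against 711, 255 and 99 with all libraries. Fos was then called higher with Pg in cKO, at 0.39 (adjusted p 5.6e-05), while Itgax also differed between these libraries, so both cannot be told apart there. In cHet Fos fell by 0.87 (adjusted p 1.5e-11), against 1.20 with all libraries. Junb gave -0.63 between genotypes in controls and 0.61 for the difference in response.

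**Figure D4:**
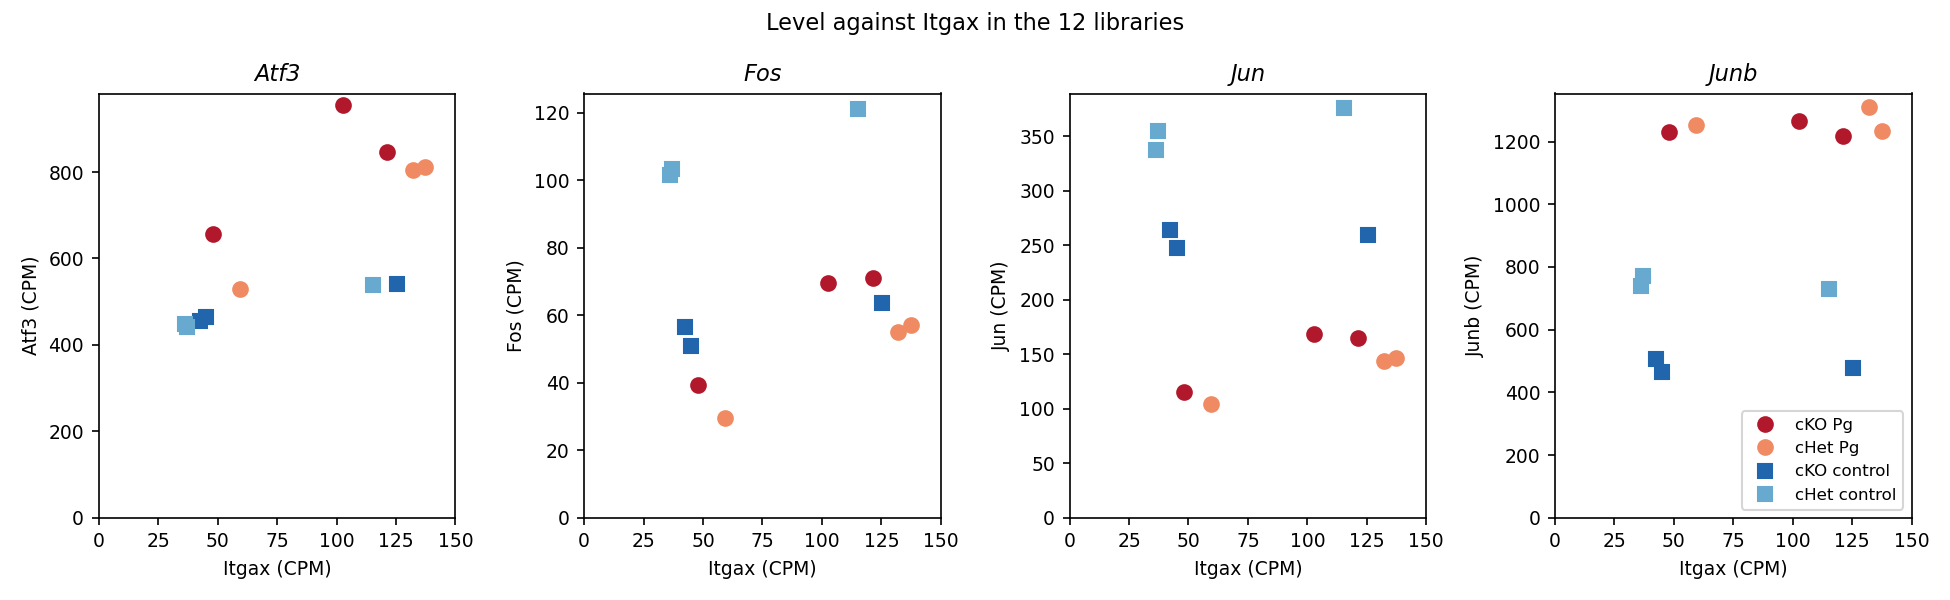
Levels of Atf3, Fos, Jun and Junb against the level of Itgax, both in CPM with axes from 0, 1 point per library (circles Pg, squares control). Itgax forms a low range of 36.2 to 59.3 CPM and a high range of 103 to 137 CPM; Atf3 and Fos are lower at low Itgax in all 4 groups, and Junb shows no such order.

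Stromal cell transcripts also moved with genotype. Of 12 stromal markers 8 were tested, and 7 were lower in cKO in controls and 7 under Pg, beside 3.02% and 1.20% of all tested genes. The 12 stromal markers summed to 4.34 to 5.85 CPM in cKO Pg and 33.4 to 43.7 CPM in cHet Pg libraries. In controls they summed to 2.74 to 4.05 CPM in cKO and 34.1 to 36.1 CPM in cHet libraries, with Lum at 0 in all 12 libraries. Col1a2 held 5.60 to 6.23 CPM in cHet control libraries. The genotype gap in these markers was present with and without Pg. Their part in the control difference of the subunits was not tested. Neutrophil markers summed to 626 to 953 CPM in cKO Pg, 669 to 1014 CPM in cHet Pg, 586 to 744 CPM in cKO control and 641 to 852 CPM in cHet control libraries, so the ranges of the genotypes overlapped in both states. Other marker lists separated the genotypes in controls and overlapped under Pg. B and plasma cell markers summed to 23.3 to 42.7 CPM in cKO Pg and 20.4 to 38.6 CPM in cHet Pg, and 32.4 to 35.0 CPM in cKO control and 18.3 to 25.3 CPM in cHet control libraries. Mast cell and basophil markers summed to 12.2 to 22.9 CPM in cKO Pg and 16.9 to 35.6 CPM in cHet Pg, and 15.2 to 20.1 CPM in cKO control and 21.3 to 27.5 CPM in cHet control libraries, with Mcpt4 at 0 in all 12. Erythroid markers summed to 5.98 to 15.8 CPM in cKO Pg and 15.2 to 23.8 CPM in cHet Pg, and 13.03 to 20.25 CPM in cKO control and 24.5 to 32.5 CPM in cHet control libraries, with Car1 at 0 in all 12. T and NK cell markers separated the genotypes under Pg instead, with 41.6 to 46.5 CPM in cKO Pg and 31.7 to 38.4 CPM in cHet Pg, and 31.6 to 38.3 CPM in cKO control and 30.8 to 38.5 CPM in cHet control libraries. The 10 macrophage markers, Lyz2 among them, separated the genotypes in both states, with 20051 to 23305 CPM in cKO Pg and 28086 to 33758 CPM in cHet Pg, and 17314 to 20320 CPM in cKO control and 26294 to 29987 CPM in cHet control libraries. The part of these lists in the subunit results was not tested.

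The kinases upstream of AP-1 changed modestly with Pg. Of 28 tested genes of the MAP kinase pathway (29 listed), 11 rose and 2 fell with Pg in cKO and 12 rose and 5 fell in cHet. Of all tested genes 16.9% rose and 17.1% fell in cKO, and 18.0% rose and 18.0% fell in cHet. The median log2 changes of the list were 0.11 and 0.13. Map2k3, which activates p38, rose by 1.59 ± 0.08 in cKO and 1.47 ± 0.08 in cHet, and Mapkapk2, a p38 target kinase, by 0.60 ± 0.06 and 0.59 ± 0.06. Mapk8, which encodes the JUN kinase JNK1, rose by 0.61 ± 0.10 in cKO and 0.53 ± 0.10 in cHet. Braf rose by 0.31 ± 0.06 in cKO and 0.45 ± 0.06 in cHet. Between genotypes in controls edgeR called 2 of 28, beside 5.15% of all tested genes. Map3k1, upstream of JNK, was lower in cKO (-0.41 ± 0.07, adjusted p 0.00352) and Braf higher (0.23 ± 0.06, adjusted p 0.0451). Under Pg edgeR called 0 of 28 (1 at an unadjusted p under 0.05, 0 by DESeq2 and limma-voom), beside 1.85% of all tested genes. For the difference in response it called 0 (3 unadjusted, 1 by DESeq2, 0 by limma-voom), beside 0.717%.

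Regulators of Fos transcription are the factors that bind the serum and cAMP response elements, and 8 of 10 listed genes were tested, since the symbols Mrtfa and Mrtfb were not matched. With Pg 5 rose and 1 fell in cKO, and 4 rose and 1 fell in cHet. Of all tested genes 34.0% were called in cKO and 36.1% in cHet. Srf, the serum response factor, rose by 0.64 ± 0.07 in cKO and 0.35 ± 0.07 in cHet. Elk3, which binds beside it, rose by 0.60 ± 0.08 in cKO and 0.86 ± 0.08 in cHet. Stat3 rose by 0.53 ± 0.09 in cKO and 0.50 ± 0.09 in cHet. Creb1, which binds the cAMP response element, fell by 0.80 ± 0.07 in cKO and by 0.56 ± 0.07 in cHet. Between genotypes edgeR called 0 of the 8 under Pg, 0 in controls and 0 for the difference in response. Of all tested genes it called 1.85%, 5.15% and 0.717%. At an unadjusted p under 0.05 the list had 0, 3 and 3, and DESeq2 and limma-voom also called 0 in all 3 comparisons.

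Genes that brake this pathway rose with Pg in most cases. The list holds dual-specificity phosphatases that switch off MAP kinases, Sprouty and Spred proteins, ZFP36 proteins that speed the decay of cytokine and early gene mRNAs, and the ubiquitin ligase genes Fbxw7, Cop1 and Itch. Of 19 tested (20 listed), 15 rose and 3 fell with Pg in cKO, and 11 rose and 3 fell in cHet. The shares called over all tested genes were 34.0% in cKO and 36.1% in cHet. The list members that fell were Dusp6, Zfp36l2 and Fbxw7 in both genotypes. Dusp1 held 1199 ± 94.0 CPM in cKO Pg, 1343 ± 36.5 CPM in cHet Pg, 92.9 ± 10.1 CPM in cKO control and 226 ± 16.3 CPM in cHet control libraries (SD, n = 3 each). It rose by 3.69 ± 0.09 in cKO and 2.57 ± 0.08 in cHet, Dusp5 by 3.96 ± 0.11 and 2.97 ± 0.10, and Zfp36 by 2.55 ± 0.08 and 1.79 ± 0.07. In controls 5 were lower and 1 higher in cKO, beside 3.02% and 2.13% of all tested genes. Among the lower were Dusp1 (-1.29 ± 0.08), Zfp36 (-0.77 ± 0.07), Dusp5 (-0.74 ± 0.11) and Dusp8 (-1.12 ± 0.22). Under Pg edgeR called 0 of 19 between genotypes (2 at an unadjusted p under 0.05, 0 by DESeq2 and limma-voom), beside 1.85% of all tested genes. For the difference in response 4 of 19 were called, all higher in cKO, beside 0.717% of all tested genes.

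Genes that textbooks list as AP-1 targets rose with Pg in most cases. Of 25 tested (28 listed), 18 rose and 1 fell in cKO and 17 rose and 1 fell in cHet, with median log2 changes of 2.41 and 2.09. Over all tested genes 34.0% were called in cKO and 36.1% in cHet. Ptgs2, the inducible cyclooxygenase, rose by 5.39 ± 0.14 in cKO and 4.82 ± 0.14 in cHet, Il1b, which encodes a fever-inducing cytokine, by 3.63 ± 0.09 and 3.02 ± 0.09, and the adhesion receptor Cd44 by 1.41 ± 0.07 and 1.57 ± 0.07. In controls 7 were lower in cKO and 0 higher by edgeR (10 called by DESeq2, 4 by limma-voom), beside 3.02% and 2.13% of all tested genes. The chemokine Ccl2 was at -0.92 ± 0.16. Il1b was at -0.57 ± 0.08 and Cxcl2 at -0.56 ± 0.13. Under Pg edgeR called 1 of the 25 between genotypes (8 at an unadjusted p under 0.05, 4 by DESeq2, 2 by limma-voom), beside 1.85% of all tested genes. Many of these genes are also NF-kB targets, and whether AP-1 binds them here was not measured.

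The 22 other bZIP factors listed were all tested, and most rose with Pg. In all, 13 rose and 4 fell in cKO, and 12 rose and 4 fell in cHet, with median log2 changes of 0.48 and 0.34. Over all tested genes 34.0% were called in cKO and 36.1% in cHet. Cebpb, a partner of NF-kB at cytokine genes, rose by 1.33 ± 0.08 in cKO and 1.05 ± 0.08 in cHet, and Creb5 by 1.24 ± 0.09 in both. Creb1 is on this list as well. In controls 3 were lower in cKO, Batf3 (-1.02 ± 0.22), Cebpb (-0.43 ± 0.08) and Atf5 (-0.31 ± 0.08), beside 3.02% of all tested genes. Under Pg edgeR called 0 of 22 (2 at an unadjusted p under 0.05, 0 by DESeq2 and limma-voom), beside 1.85% of all tested genes. For the difference in response it called 0 (10 unadjusted, 1 by DESeq2, 0 by limma-voom), beside 0.717%. Of 14 other immediate early genes, 13 rose in cKO, and 11 rose and 1 fell in cHet, against the same shares of all tested genes. Myc rose by 2.28 ± 0.08 in cKO and 1.95 ± 0.08 in cHet, and Ier3, a survival factor gene, by 2.08 ± 0.11 and 1.13 ± 0.10. In controls 6 of the 14 were lower in cKO and 0 higher, beside 3.02% and 2.13% of all tested genes. Ier3 was at -0.98 ± 0.11, Ier2 at -0.77 ± 0.12, Egr3 at -1.07 ± 0.20 and Btg2 at -0.64 ± 0.14. Under Pg Klf2 alone of the 14 was called (-0.39 ± 0.09), beside 1.85% of all tested genes.

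The genes whose levels ran most like each subunit differed between members. Likeness is Pearson's r of log2 CPM over the 12 libraries, which share their treatment and genotype, so it is high for any gene that Pg moves. For Junb the nearest were Ier3 (0.992), Dusp1 (0.989) and Zfp36 (0.987). For Fosl1 they were Dusp5 (0.998), the NF-kB subunit gene Rel (0.996) and Zfp703 (0.995), and for Fosb they were Chd7 (0.994), the death gene Bcl2l11 (0.993) and the ligand gene Tnfsf9 (0.993). Jdp2 was nearest to Plek (0.997), Rab11fip1 (0.996) and B4galt5 (0.996), and Fosl2 to Plagl2 (0.997), Lrrfip1 (0.997) and Mdm2 (0.997). Jun was nearest to the clock output gene Dbp (0.989), Cbfa2t2 (0.989) and Zmynd8 (0.982), and Fos to Lbh (0.952), Nipal3 (0.946) and Kif13b (0.945). Jund ran nearest to Cebpb (0.969), Klhl25 (0.961) and Mgat4b (0.954), Atf3 to M6pr (0.976), Slc3a2 (0.960) and Sertad1 (0.960), and Batf to Mark2 (0.978), Socs1 (0.976) and Stat5a (0.973).

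The chromosome 12 segment of Fos, Jdp2 and Batf held members that went different ways with Pg in cHet, where Fos fell by 1.20 and Jdp2 and Batf rose by 2.08 and 1.00 on the log2 scale. The segment holds 6 genes of the table, of which 5 were tested. Gm32296, a long noncoding RNA between Fos and Jdp2 (chr12:85529598-85542280, plus strand), averaged 0.404 CPM and rose by 3.28 ± 0.65 in cKO (adjusted p 8.1e-04) and 4.09 ± 0.97 in cHet (adjusted p 0.00312). Gm47863, annotated as a bidirectional promoter transcript on the minus strand (chr12:85597019-85599191), overlaps the start of Jdp2. It rose by 1.24 ± 0.25 in cKO (adjusted p 0.00104) and 1.60 ± 0.26 in cHet (adjusted p 1.1e-04). The strand setting of the counting is not given in the sources used here, so reads of Gm47863 and Jdp2 in the overlap cannot be told apart. Gm47863 averaged 4.19 CPM against 143 CPM for Jdp2.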

How the data were processed

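Each of the 12 libraries holds polyA RNA of cultured macrophages, with fragments of 370 to 420 bp selected, per the labels' protocols. The file deposited by the authors holds unnormalized read counts for each gene, with positions and lengths. The build was mm10 and the tools were fastp, HISAT2 2.0.5 and featureCounts 1.5.0-p3, per the submitters' processing notes. No source used here gives the strand setting, annotation release or handling of multimapping reads, and overlapping genes can take each other's reads.

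Analysis used edgeR 4.0.16 in R 4.3.3. The filterByExpr function kept 13800 of 27404 genes with a count above 0. After TMM scaling, 1 model with a mean for each group covered all 12 libraries. The test was the robust quasi-likelihood F test, with Benjamini-Hochberg adjustment over all 13800 genes of each of 5 comparisons and a threshold of 0.05. ± beside a log2 difference is its SE, the difference over the square root of F, and ± beside a level is the SD of 3 libraries. CPM and RPKM were computed from the counts with TMM-scaled totals and, for RPKM, the deposited gene length. That length equals the exon union of GENCODE M21 for 9 of 10 members. For Fosl1 the deposited length is 1707 bases and the GENCODE M21 union 2033 bases. Pairs of libraries of 1 group differed beyond sampling noise, with a chi-square of 2.59 to 17.2 per gene, so none was treated as a second deposit of the same library; this does not show separate cultures or animals.

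Alternatives were RLE factors, library totals alone, no filter and a stricter filter, DESeq2 1.42.0, voom of limma 3.58.1, the compared groups alone, a replicate block, leaving out each library, and shares without length scaling. Fits with Itgax were added after seeing the data. All 10 members are named, and from each list up to 4 genes past the threshold with the smallest p per comparison, and the 3 genes most like each member; some genes this rule takes are not reported here. The members and lists were chosen with earlier results of these data known. Promoter sequences are from RefSeq (GRCm38.p6).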

Additional observations from a re-analysis of the deposited data

Results flagged for a closer look

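The Pg response of Junb differed between the genotypes in a test of the difference itself, by 0.60 ± 0.08 on the log2 scale (adjusted p 0.00338 with edgeR), larger in cKO. The same test singled out 6 genes of the lists above, all with a larger response in cKO. They were the phosphatase genes Dusp1 (1.12 ± 0.11, adjusted p 2.8e-04), Dusp5 (0.99 ± 0.14, adjusted p 0.00460) and Dusp8 (1.41 ± 0.30, adjusted p 0.0379), the mRNA decay gene Zfp36 (0.76 ± 0.10, adjusted p 0.00338), the cytokine gene Il1b (0.61 ± 0.12, adjusted p 0.0213) and Ier3 (0.96 ± 0.15, adjusted p 0.00950). All 7 were lower in cKO than in cHet controls with an adjusted p under 0.05, and none of them was called between genotypes under Pg.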

How the results depend on the processing

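No result turned its direction while called. For Pg the count of members called was 9 in cKO under every alternative but the fit without the libraries apart by Itgax (10), and between 8 (library totals alone) and 10 in cHet. Between genotypes under Pg, against 0 in the fit reported and 255 of all genes, members called were 2 with no filter (507 genes), 2 with Itgax as covariate (759) and 5 without the libraries that stood apart by Itgax (771); the stricter filter gave 160 genes. In controls, against 1 and 711, they were 3 with no filter (1101), 4 with DESeq2 (819) and 4 with the compared groups alone (623). With Itgax as covariate they were 5 (1701), and without the libraries apart also 5 (1422). For the difference in response, against 1 and 99, they were 3 with no filter (389), 3 with DESeq2 (248), 4 with Itgax as covariate (715) and 4 without the libraries apart (868). The cause was not tested. Leaving out each library gave 9 to 9 and 9 to 10 members for Pg in cKO and cHet (3838 to 4460 and 4102 to 4689 genes), 0 to 1 under Pg (153 to 259), 1 to 2 in controls (319 to 591) and 1 to 3 for the difference in response (42 to 207). Without cKO Pg library 3 the last added Fosl1 (1.13) and Jun (0.81), and without cHet Pg library 1 Fosb (1.99). Junb was called in controls and for the difference in response in all of these fits.

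Without length scaling the shares were 40.7% in cKO Pg and 42.0% in cHet Pg for Junb, 26.8% in cKO Pg, 32.1% in cKO control and 24.5% in cHet control for Atf3, and 4.88%, 4.34%, 17.0% and 18.3% in cKO Pg, cHet Pg, cKO control and cHet control for Jun. By construction this gives long mRNAs more weight. Leaving out each library, the 12 shares ranged as follows: Junb 42.6% to 45.0%, 44.4% to 46.8%, 32.5% to 34.4% and 39.8% to 41.9% in cKO Pg, cHet Pg, cKO control and cHet control; Atf3 29.4% to 33.0%, 25.7% to 30.1%, 34.8% to 37.0% and 26.4% to 28.5%; Jun 3.62% to 4.12%, 3.24% to 3.65%, 12.6% to 13.1% and 13.8% to 14.1%.

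Same-numbered libraries of compared groups had correlations of deviations from group means between -0.25 and 0.32. Between genotypes in controls all 3 were above 0 (0.32, 0.05 and 0.06), and in no comparison were all 3 above 0.1. With 3 libraries a group, these values cannot show whether replicate numbers mark shared animals or days. With the replicate block 9, 9, 0, 1 and 1 members were called for Pg in cKO, Pg in cHet, the genotypes under Pg, the genotypes in controls and the difference in response, and 4448, 4723, 220, 549 and 70 genes; Atf3 in cHet (0.60, adjusted p 0.0571) was the member not called.

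Depth limits Fosb and Fosl1 in controls, with 13 to 55 reads per library.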
